A study of Mus musculus with 6 samples.

Results

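Hemidesmosomes are the junctions that anchor basal keratinocytes to the basement membrane, and 9 genes of this attachment were followed here in embryonic mouse epidermis: Itga6, Itgb4, Col17a1, Dst, Plec, Lama3, Lamb3, Itga3 and Itgb1. Members were taken as every array probe that the platform annotation assigns to those genes, which gave 39 probes of 45281 on the array and 9 genes of 21946 named. Of the 39 probes, 15 passed the detection filter, at least 1 for each of the 9 genes. To pass, a probe had to outshine all but 5% of the negative control beads (a detection p under 0.05) on 3 or more of the 6 arrays. The other 24 probes are described at the end of the results on single genes.

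Total RNA was profiled on Illumina bead arrays from epidermis of the back skin of C57BL6 embryos at stage E17.5. One group was wild type, with 3 arrays, and the other was a Harlequin Ichthyosis mutant, with 3 arrays. The sources used here name neither the mutated gene nor its allele and zygosity, and give no sex. In both groups EDTA (5 mM, 1 hour, 37 °C) loosened the epidermis, which was then peeled off. A peel can carry hair follicle and dermal cells, and it is parted from the dermis at the junction that these genes build. The labels call the arrays of a group biological replicates without saying whether embryos shared a litter, so p-values measure only the spread between these samples.

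In the hemidesmosome, the integrin of the Itga6 and Itgb4 chains and the transmembrane collagen Col17a1 span the basal membrane of the cell. Inside it they meet the plakins encoded by Dst and Plec, which tie them to keratin filaments, and outside it they bind laminin-332, which holds the Lama3 and Lamb3 chains. The integrin of Itga3 and Itgb1 binds the same laminin and couples it to actin at focal adhesions. In humans, mutations of Itga6, Itgb4, Col17a1, Plec, Dst, Lama3 or Lamb3 orthologues cause forms of epidermolysis bullosa, a group of skin blistering disorders.

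Wild-type array 3 stood apart from the rest. Its Pearson's r with the other arrays across 18358 tested probes, which are not independent replicates, was 0.836 to 0.891, against 0.965 to 0.990 among the other 5. Sample titles carry the prefix bo20 for 2 arrays of each group and bo12 for 1 array of each, wild-type array 3 and mutant array 3. Results of each member and list are therefore also given without wild-type array 3 and within prefixes. The tissue label was checked against 8 markers of basal keratinocytes, all 8 of which passed the filter. Krt14, a basal keratin, read between 13.87 and 14.61 on the normalized log2 scale on all 6 arrays. Myh8, a skeletal muscle myosin, read between 13.73 and 14.46, so the samples also held muscle RNA. A bright basal keratin does not show that the peel was epidermis alone.

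Most attachment probes read lower in mutants, by modest amounts, and none passed the test over all probes. The mutant mean lay below the wild-type mean for 13 of the 15 probes (background 53.9% of all tested probes). The median difference, mutant minus wild type, was -0.43 log2 units over the 15 probes, beside -0.04 over all probes tested. Under median scaling, which moved the median of all probes to 0.42, the members' median was 0.03 and only 6 of 15 lay below 0, but 12 lay below that median of all probes. Of the 15 probes, 0 passed an adjusted p of 0.05 in limma (background 0%), and their smallest adjusted p was 0.791. At an unadjusted limma p under 0.05 there were 4 of 15 (26.7%), all lower, beside 3.39% of all probes lower at that level. These 4 were a probe each of Itgb4, Col17a1, Dst and Lamb3, with 1.95-fold, 1.44-fold, 1.89-fold and 1.69-fold higher means in wild type. The ranges of the 2 groups were apart for 4 of 15 probes, all lower (background 7.68% of all probes not overlapping and lower). Probes of 1 gene can read the same transcripts, so the 15 probes are not 15 separate observations.

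**Figure D1:**
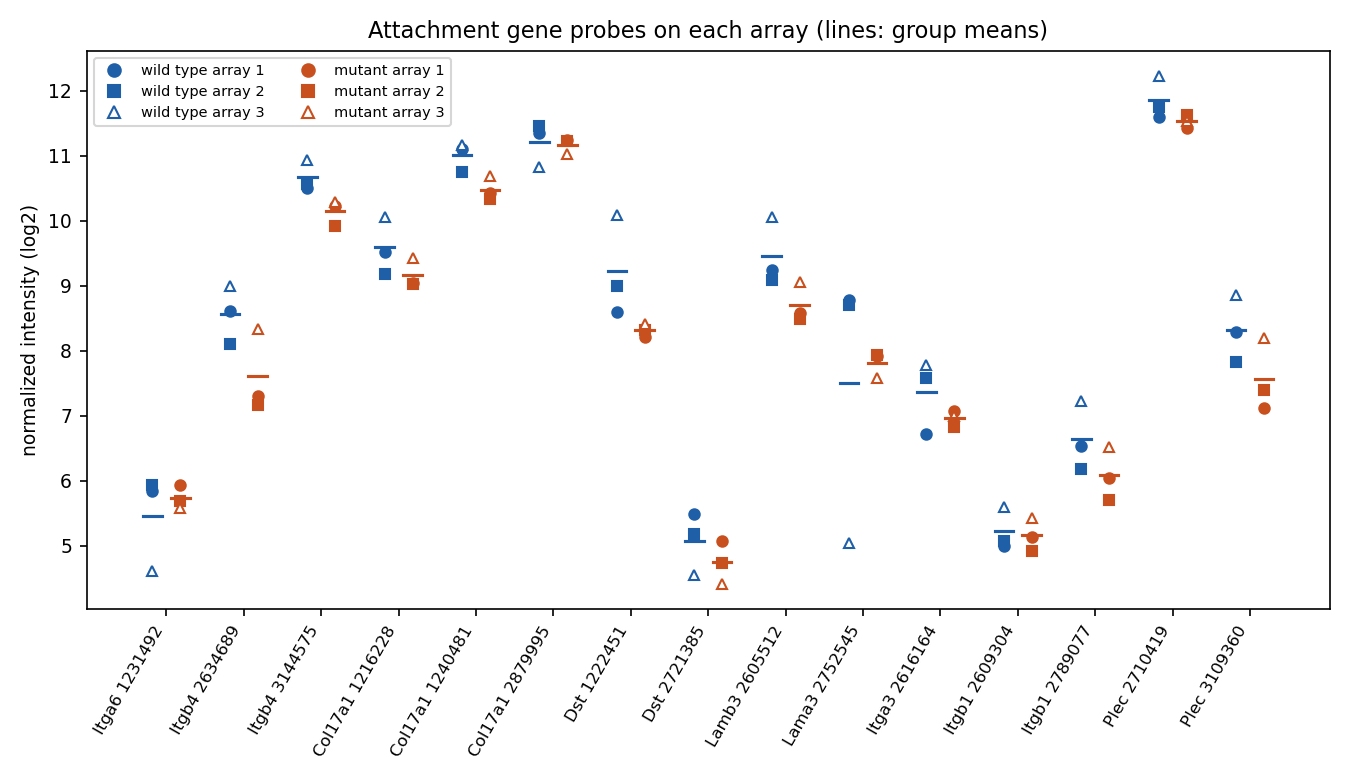
Normalized log2 intensity (vertical axis) of the 15 attachment probes that passed the detection filter, labelled by gene and the digits of the probe ID. Each symbol is 1 array, blue for wild type and orange for mutant, triangles mark array 3 of each group, and short lines are group means. Wild-type array 3 is the highest of the 6 arrays for 11 probes and the lowest for 3, which was not counted over all probes. Its median deviation from the median of the other arrays is 0.65 over these 15 probes and 0.29 over all tested probes. Levels of different probes cannot be compared.

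Itgb4, the integrin chain whose long cytoplasmic tail recruits the plakins, had 2 probes, and both were lower in mutants. The reference probe (ILMN_3144575; for each gene, the kept probe with the highest mean) read 10.50, 10.56 and 10.94 on the wild-type arrays, in replicate order here and below, and 10.23, 9.91 and 10.29 on the mutant arrays. All 3 mutant values lay below all 3 wild-type values. The difference was -0.52 (SE 0.23, 95% interval -1.06 to 0.01), with a limma adjusted p of 0.791. The other Itgb4 probe (ILMN_2634689) read 8.62, 8.10 and 9.001 in wild type and 7.31, 7.17 and 8.34 in mutants, so that mutant array 3 lay above wild-type array 2. Its difference was -0.97 (SE 0.39; adjusted p = 0.791 in limma), the most negative of the 15. Without wild-type array 3 the differences were -0.38 and -0.74. They were -0.46 and -1.12 within bo20 and -0.65 and -0.66 within bo12.

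Itga6, the alpha chain that pairs with Itgb4, had 1 kept probe of 4 (ILMN_1231492), and it read low on every array. Its values were 5.84, 5.93 and 4.61 in wild type and 5.94, 5.69 and 5.59 in mutants. Wild-type array 3 alone was not detected, and wild-type arrays 1 and 2 lay within the range of the mutants. The difference was 0.28 (SE 0.38, limma adjusted p = 0.827), -0.15 (SE 0.19) without wild-type array 3, -0.07 within bo20 and 0.97 within bo12. For comparison, the lowest level of any detected probe was 4.77 to 4.90, depending on the array.

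Col17a1, also called BP180, the transmembrane collagen of the hemidesmosome and a target of autoantibodies in bullous pemphigoid, was read by 3 probes, all kept. The middle probe by level (ILMN_1240481) read 11.10, 10.76 and 11.17 in wild type and 10.42, 10.33 and 10.68 in mutants, with no overlap. It differed by -0.53 (SE 0.22, 95% interval -1.05 to -0.01; limma adjusted p = 0.791). The dimmest (ILMN_1216228) read 9.53, 9.18 and 10.06 in wild type and 9.04, 9.02 and 9.43 in mutants, a difference of -0.43 (SE 0.28). The brightest (ILMN_2879995) read 11.36, 11.46 and 10.83 in wild type and 11.24, 11.23 and 11.02 in mutants, a difference of -0.05 (SE 0.24). These 3 probes carry the same transcript accession and split on wild-type array 3. That array lay 0.89 and 0.48 above the median of the other 5 for the dimmest and the middle probe, and -0.42 from it for the brightest. Without it the 3 differences were -0.19, -0.44 and -0.25, and the groups of the middle and the brightest probe did not overlap. In the same order the differences were -0.32, -0.55 and -0.18 within bo20 and -0.64, -0.48 and 0.20 within bo12.

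Promoter windows of RefSeq (build GRCm38.p6) run from 250 bases before to 50 after a listed transcript start. Windows of 5 of the 9 genes were taken by symbol. No window was used for Itga6, Itgb4, Plec or Lama3, which does not show that none is listed for them. Of the windows taken, 4 are shown, for Col17a1, Dst and Lamb3, whose groups did not overlap for a probe. Capitals mark TATAAA, the letters of a TATA box, or GGGCGG, a GC box, on either strand; TGANTCA, the AP-1 motif, was also searched and is in none of the 4 windows. The motifs do not overlap each other in these windows. Over all 32851 windows of 300 bases, 13.6% held TATAAA, 35.7% held GGGCGG and 7.81% held TGANTCA. A match describes the letters only, and the array measured no promoter activity. The window of Col17a1 held 2 matches to TATAAA.
Col17a1 promoter window, chr19:47691993-47692292, minus strand: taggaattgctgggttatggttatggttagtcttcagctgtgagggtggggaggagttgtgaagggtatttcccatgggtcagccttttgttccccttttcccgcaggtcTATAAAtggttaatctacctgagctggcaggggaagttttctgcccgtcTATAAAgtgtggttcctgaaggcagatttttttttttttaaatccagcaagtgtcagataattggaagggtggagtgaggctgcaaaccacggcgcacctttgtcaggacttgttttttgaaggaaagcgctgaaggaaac

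Dst encodes the plakins known as dystonin or BPAG1, of which the epithelial form, BP230, links the hemidesmosome to keratin filaments, while other forms serve nerve and muscle. Of 11 probes, 2 were kept. The reference probe (ILMN_1222451) read 8.59, 9.003 and 10.09 in wild type and 8.21, 8.32 and 8.41 in mutants. The 3 mutant values lay close together and below every wild-type value, and wild-type array 3 was far above the rest. The difference was -0.92 (SE 0.39, 95% interval -1.83 to -0.01; limma adjusted p = 0.791). It was -0.47 (SE 0.20) without wild-type array 3, -0.53 within bo20 and -1.68 within bo12. The second kept probe (ILMN_2721385) was near the detection limit, detected on 2 wild-type arrays and 1 mutant array. It read 5.49, 5.18 and 4.55 in wild type and 5.07, 4.74 and 4.42 in mutants, a difference of -0.33 (SE 0.31), and of -0.64 (SE 0.25) without wild-type array 3, -0.43 within bo20 and -0.13 within bo12.

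The kept Dst probes belong to different transcript accessions in the platform annotation. The reference probe is 1 of 2 probes of one accession, and the dim probe is 1 of 8 of another. The other 9 probes read between 4.23 and 5.25 on all arrays, and 8 of them were detected on no array. The sources used here do not place the probes in the gene, so which forms each can read is not known. The gene has 2 RefSeq windows that start 148.7 kb apart. The upstream one held 4 matches to GGGCGG and 70.3% G and C, and the downstream one held no match to the 3 motifs and 46% G and C. Both are shown because the kept probes of this gene carry different accessions.
Dst promoter window, chr1:34011345-34011644, plus strand: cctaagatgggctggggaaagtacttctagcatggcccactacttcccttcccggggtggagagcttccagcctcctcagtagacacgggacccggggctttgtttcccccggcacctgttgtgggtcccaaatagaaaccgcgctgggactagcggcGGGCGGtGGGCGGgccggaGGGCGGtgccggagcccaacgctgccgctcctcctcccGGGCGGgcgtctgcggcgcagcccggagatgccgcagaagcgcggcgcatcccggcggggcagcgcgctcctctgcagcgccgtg
Dst promoter window, chr1:34160010-34160309, plus strand: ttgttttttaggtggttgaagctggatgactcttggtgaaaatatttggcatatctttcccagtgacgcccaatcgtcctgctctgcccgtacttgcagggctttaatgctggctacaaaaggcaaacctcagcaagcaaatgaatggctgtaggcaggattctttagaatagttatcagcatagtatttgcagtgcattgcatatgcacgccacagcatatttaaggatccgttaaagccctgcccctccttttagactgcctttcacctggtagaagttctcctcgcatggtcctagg

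Plec encodes plectin, the second plakin of the hemidesmosome plaque, and 2 of its 14 probes were kept. The reference probe (ILMN_2710419) read 11.60, 11.75 and 12.22 in wild type and 11.43, 11.62 and 11.54 in mutants. The groups overlapped, since mutant array 2 lay just above wild-type array 1, and the difference was -0.33 (SE 0.24, limma adjusted p = 0.791). The second probe (ILMN_3109360) read 8.29, 7.82 and 8.86 in wild type and 7.13, 7.39 and 8.19 in mutants, a difference of -0.75 (SE 0.38, limma adjusted p = 0.791). The 2 differences shrank to -0.15 and -0.48 without wild-type array 3, and were -0.15 and -0.79 within bo20 and -0.68 and -0.66 within bo12. The remaining 12 probes, most of them assigned to other plectin transcripts, read between 4.23 and 5.09, and 7 of them were detected on no array.

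Lamb3 and Lama3 encode the beta and alpha chains of laminin-332, the ligand of the hemidesmosome integrin, and had 1 probe each. Lamb3 (ILMN_2605512) read 9.25, 9.09 and 10.06 in wild type and 8.58, 8.48 and 9.06 in mutants. All mutant values lay below all wild-type values, although mutant array 3 came close to wild-type array 2. The difference was -0.76 (SE 0.32, 95% interval -1.51 to -0.002; limma adjusted p = 0.791). It was -0.45 (SE 0.22) without wild-type array 3, -0.64 within bo20 and -0.997 within bo12. The first of 2 RefSeq windows of Lamb3 held none of the 3 motifs.
Lamb3 promoter window, chr1:193301744-193302043, plus strand: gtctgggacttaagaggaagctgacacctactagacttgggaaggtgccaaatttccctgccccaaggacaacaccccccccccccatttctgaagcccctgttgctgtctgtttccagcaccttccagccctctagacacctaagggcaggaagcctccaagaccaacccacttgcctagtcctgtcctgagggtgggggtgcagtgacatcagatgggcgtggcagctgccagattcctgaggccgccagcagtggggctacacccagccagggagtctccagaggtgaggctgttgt

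Lama3 (ILMN_2752545) was the member most altered by a single array. It read 8.77, 8.71 and 5.05 in wild type and 7.92, 7.94 and 7.59 in mutants. Wild-type arrays 1 and 2 lay above all mutants, and wild-type array 3 lay -2.89 log2 units from the median of the other 5 arrays. The mean difference was 0.31 with an SE of 0.95 (limma adjusted p = 0.922). Without wild-type array 3 it was -0.91 (SE 0.19, 95% interval -1.35 to -0.46), or 1.87-fold higher in wild type, with an unadjusted p of 0.00188 and a limma adjusted p of 0.183. It was -0.81 within bo20 and 2.54 within bo12, where wild-type array 3 is the only wild-type array. In the same array Lamb3 lay 0.997 above the median of the others.

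Itga3 and Itgb1, the chains of the laminin-binding integrin of focal adhesions, had overlapping groups for all 3 of their kept probes. Itga3 (ILMN_2616164) read 6.71, 7.59 and 7.79 in wild type and 7.07, 6.83 and 7.00 in mutants, with wild-type array 1 below all 3 mutants. Its difference was -0.39 (SE 0.31), -0.18 without wild-type array 3, -0.20 within bo20 and -0.79 within bo12. Itgb1 had 2 kept probes. The reference probe (ILMN_2789077) read 6.53, 6.18 and 7.24 in wild type and 6.04, 5.71 and 6.52 in mutants, a difference of -0.56 (SE 0.35). The mutant value was the lower at each of the 3 replicate numbers, though the sample titles name no pairs. The difference was -0.27 without wild-type array 3, -0.48 within bo20 and -0.71 within bo12. The dimmer one (ILMN_2609304) read 5.00, 5.08 and 5.59 in wild type and 5.14, 4.92 and 5.42 in mutants, a difference of -0.06 (SE 0.25), and 0.13 without wild-type array 3, -0.01 within bo20 and -0.17 within bo12. Limma adjusted p for Itga3 and both Itgb1 probes was 0.791 to 0.942.

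The 24 probes that did not pass the filter belonged to Dst (9), Plec (12) and Itga6 (3). They read between 4.23 and 5.51, 16 were detected on no array, and none was detected on more than 2 arrays. They were not part of the test above. With no detection filter 0 of all 39 member probes passed the limma adjusted p (background 0%). At an unadjusted limma p under 0.05 there were 2 of 39, both lower, beside 2.95% of all 45281 probes lower at that level. Of the 15 kept probes, 13 were detected on all 6 arrays, the exceptions being the probe of Itga6 and the dimmer probe of Dst.

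Leaving out wild-type array 3 brought the 9 reference probes to the same side. With all 6 arrays 7 of 9 lay below 0, Itga6 and Lama3 being above, and without wild-type array 3 all 9 did, between -0.91 and -0.15. Over the 15 kept probes, 14 lay below 0 (background 49.1%), the exception being the dimmer probe of Itgb1, and the median was -0.38. Groups did not overlap for 7 of 15 probes, all lower (background 11.4% not overlapping and lower). These were the probes of Lamb3 and Lama3, both Dst probes, the middle and the brightest Col17a1 probe and the reference probe of Itgb4. At an unadjusted p under 0.05 there were 3 of 15, all lower (background 3.98% lower), and 0 passed the limma adjusted p (background 0.278%), where the smallest was that of Lama3, 0.183.

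**Figure D2:**
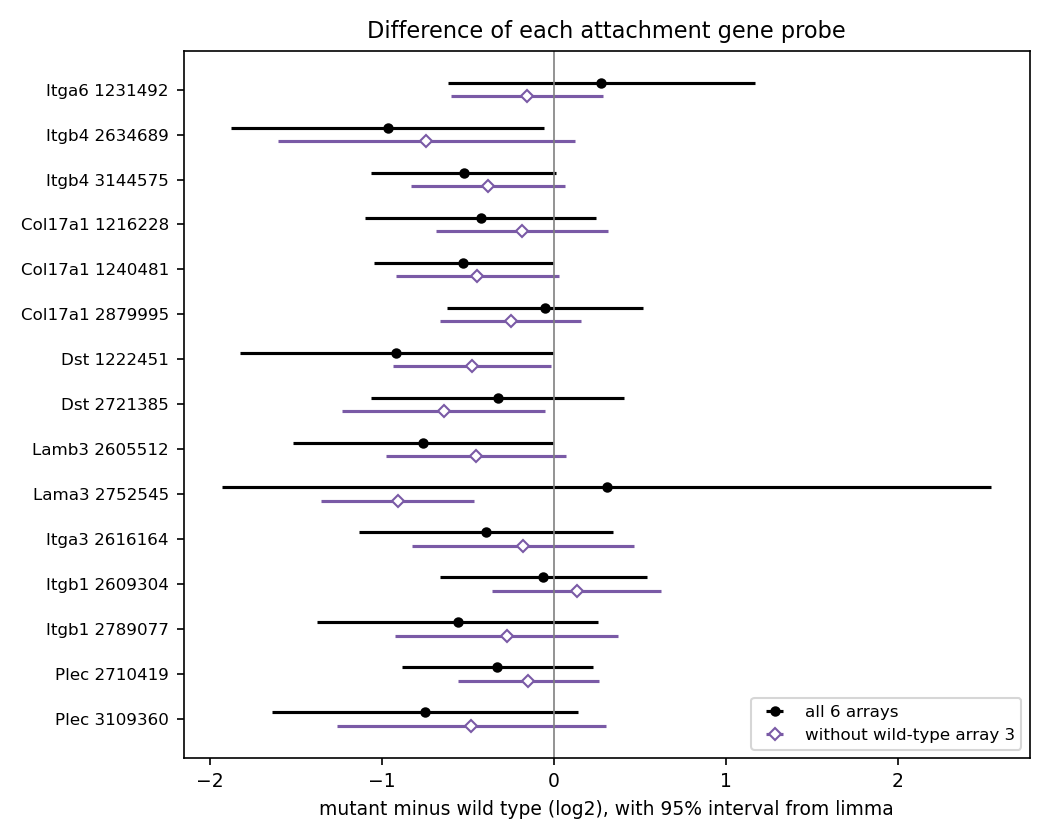
Mutant minus wild-type difference in log2 units (horizontal axis) for each of the 15 probes, with 95% intervals from limma. Black circles use all 6 arrays and open purple diamonds leave out wild-type array 3. The interval of Lama3 narrows from -1.93 to 2.54 with all arrays to -1.35 to -0.46 without that array.

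Within the bo20 arrays, 2 of each group, all 15 probes were lower in mutants (background 50%), with a median of -0.46, and the groups of 11 did not overlap (background 22.1% not overlapping and lower). The smallest difference was that of the dimmer Itgb1 probe, at -0.01. Within bo12, with 1 array of each group and so no test, 12 of 15 were lower (background 60%). The 3 exceptions were Itga6 at 0.97, Lama3 at 2.54 and the brightest Col17a1 probe at 0.20. The median of the 15 within bo12 was -0.65. Over all tested probes the median was -0.19 within bo12 and 3e-04 within bo20. The same 12 probes were lower within both prefixes (background 34.9%). Mutant array 3 was the highest of the mutants for 9 of 15 probes, and wild-type array 3 the highest of all 6 arrays for 11. Neither was counted over all probes. Wild-type array 3 lay above the median of the other arrays by a median of 0.65 over the 15 probes. Over all tested probes that median was 0.29. With the bo20 arrays alone, the members' smallest adjusted p in limma was 0.0971, for the dimmer Itgb4 probe.

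**Figure D3:**
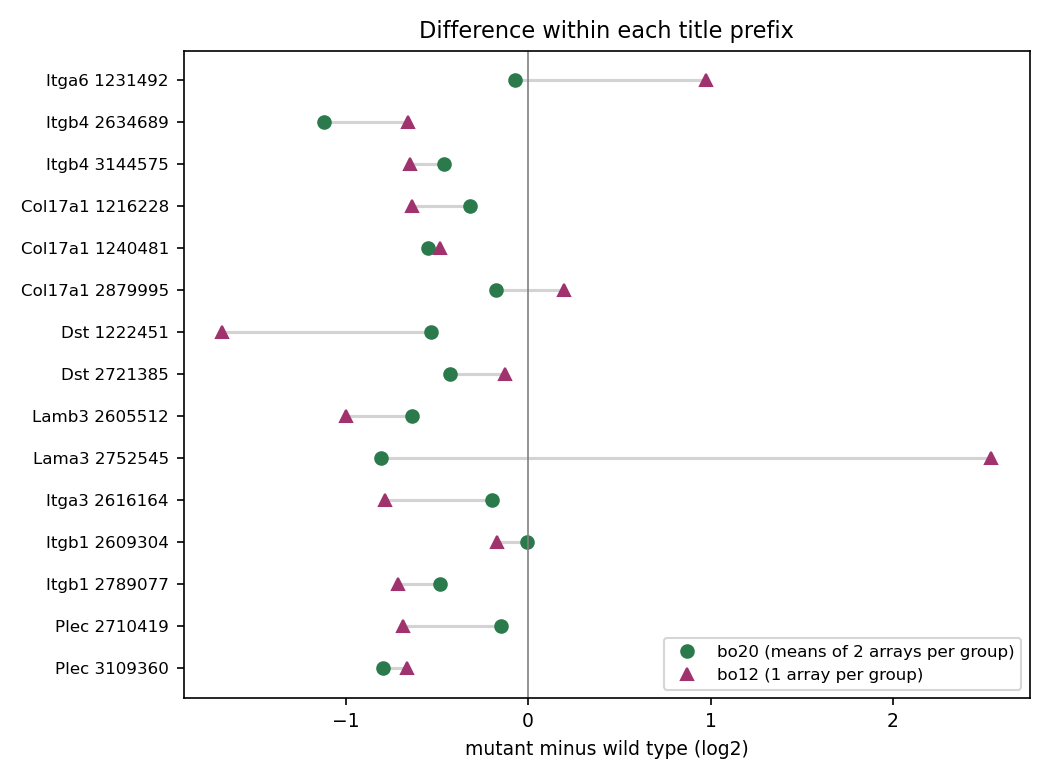
Mutant minus wild-type difference in log2 units (horizontal axis) of the 15 probes within each title prefix. Green circles compare means of 2 arrays per group in bo20, purple triangles compare 1 array per group in bo12, and grey lines join the values of a probe. All 15 circles lie below 0 and 12 of 15 triangles do.

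Of 21 further hemidesmosome and basement membrane genes, 17 were measured, 14 below 0 and 3 above, with a median of -0.28 over their reference probes, and 0 passed the limma adjusted p (1 did at an unadjusted p under 0.05, lower). Lamb2, a laminin beta chain of other isoforms, read 8.10, 7.72 and 8.49 in wild type and 6.98, 7.49 and 7.58 in mutants, a difference of -0.75 (SE 0.28) with no overlap. Col7a1, the collagen of the anchoring fibrils beneath the hemidesmosome, differed by -0.69 (SE 0.31). Col4a6, a chain of epithelial basement membrane collagen, differed by -0.43 (SE 0.22), and Fras1, an extracellular protein of embryonic epidermal basement membrane, by -0.55 (SE 0.30). Adjusted p was 0.791 in limma for each of these 4. With all arrays the list ran from -0.75 to 0.93. Without wild-type array 3 the list had 11 values below 0 and 6 above, a median of -0.07 and a range of -0.55 to 0.69. The 4 genes, named for their smallest p with all arrays, then stood at -0.55, -0.45, -0.35 and -0.35. The list median was -0.17 within bo20 and -0.40 within bo12.

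Intracellular adaptors of integrin adhesion had 11 of 14 genes measured, 6 below 0 and 5 above (median -0.11), and 0 were called (0 at an unadjusted limma p under 0.05). Without wild-type array 3 this turned to 5 below and 6 above (median 0.03), and the median was 0.15 within bo20 and -0.44 within bo12. Actn1, which cross-links actin, differed by -0.36 (SE 0.21), and Bcar1, a docking protein of focal adhesions, by -0.37 (SE 0.25). Vcl, which encodes vinculin, and Fermt2, kindlin-2, differed by 1.47 (SE 0.93) and 1.04 (SE 0.78) with all arrays, and by 0.25 and 0.03 without wild-type array 3. Of 7 other epidermal integrin chains 5 were measured, 4 of them above 0 and 1 below (median 0.37), again with 0 called in limma and 0 at an unadjusted p under 0.05. Itgav, a chain of fibronectin and TGF-beta binding integrins, differed by 0.41 (SE 0.23), Itga2, a collagen-binding chain, by 0.37 (SE 0.23), and Itgb5, a partner of Itgav, by 0.84 (SE 0.63). Itga5, the fibronectin receptor chain, differed by -0.53 (SE 0.35). Without wild-type array 3 these 4 stood at 0.38, 0.35, 0.04 and -0.19. The median of the 5 was 0.33 without that array, 0.26 within bo20 and 0.59 within bo12.

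**Figure D4:**
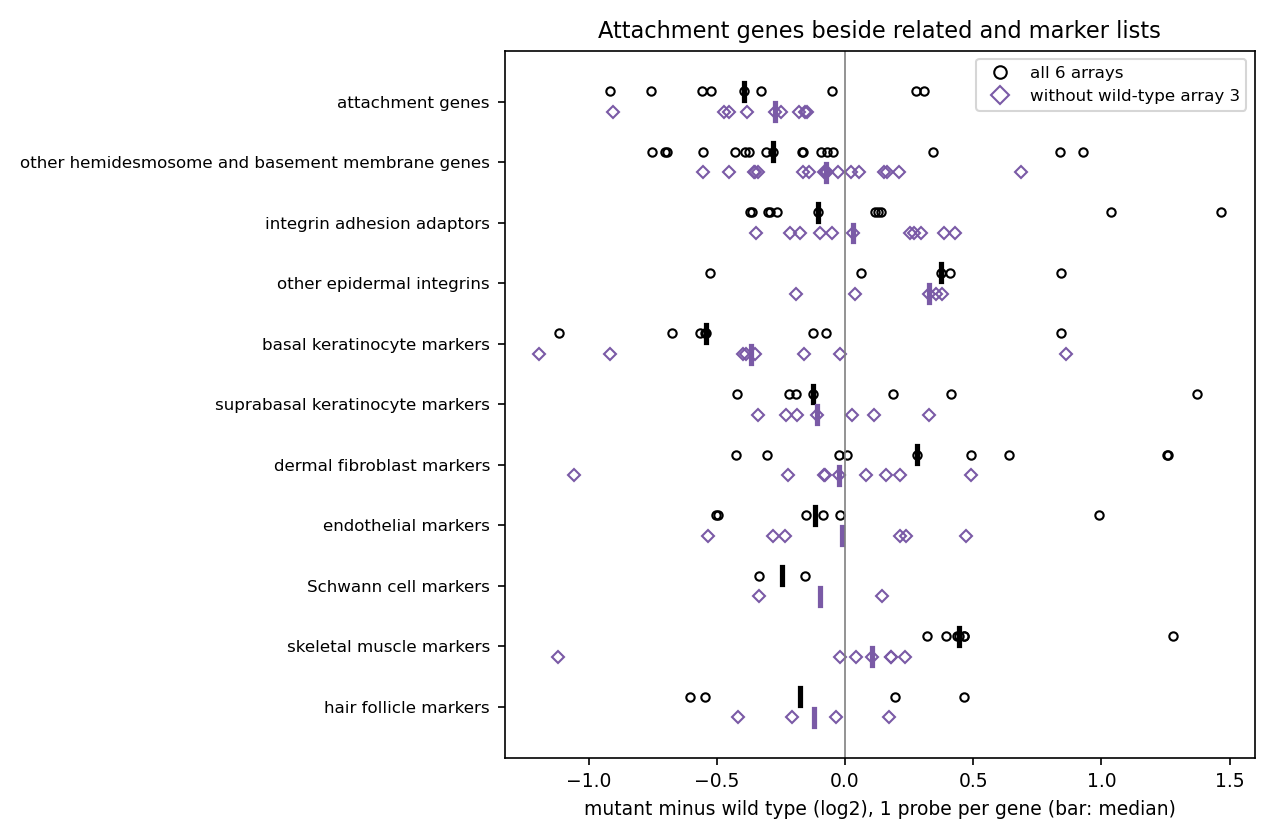
Mutant minus wild-type difference in log2 units (horizontal axis), 1 reference probe per gene, for the 9 attachment genes, related lists and marker lists. Black circles use all 6 arrays, purple diamonds leave out wild-type array 3, and bars are medians. The medians of the attachment genes are -0.39 and -0.27, and those of the basal keratinocyte markers -0.54 and -0.37.

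Most markers of basal keratinocytes, the cells that make hemidesmosomes, also read lower in mutants. Of 8 markers, all measured, 7 were below 0 and 1 above (median -0.54), 0 were called in limma, and 2 had an unadjusted p under 0.05, 1 in each direction. Dlk2, a homologue of the Delta ligands of Notch, differed by -1.11 (SE 0.26), Krt5, the basal partner of Krt14, by -0.57 (SE 0.24), and Ccnd1, cyclin D1, by -0.67 (SE 0.31). Sfn, which encodes the epithelial 14-3-3 sigma protein, differed by 0.84 (SE 0.19), and Krt14 by -0.13 (SE 0.25). Trp63 was nearly level, at -0.07 (SE 0.20). Krt15 differed by -0.55 (SE 0.52), but by -1.23 within bo20 and 0.82 within bo12. The summed level of the 8 markers, on the log2 scale, was 15.31 to 15.65 in wild type and 15.15 to 15.21 in mutants, without overlap. That sum is weighted towards the brightest probes, such as Krt14. The list median was -0.37 without wild-type array 3, -0.43 within bo20 and -0.40 within bo12. In these bulk samples, fewer basal cells and less RNA of these genes per cell cannot be told apart, and the part of basal cell content in the differences of the attachment genes was not tested.

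Hair follicle markers, of which 4 of 6 were measured, had a summed level of 11.15 to 11.75 in wild type and 10.74 to 11.13 in mutants. Most of that sum is Sox9, which differed by -0.55. Shh differed by -0.61, and the dim Lef1 and Lhx2 by 0.46 and 0.19, so 2 lay below 0 and 2 above. The median difference was -0.18, or -0.12 without wild-type array 3, -0.26 within bo20 and 0.17 within bo12. The part of hair follicles was not tested either. Suprabasal keratinocyte markers (7 of 8 measured, median -0.12, and -0.11 without wild-type array 3) had summed levels of 16.41 to 16.65 in wild type and 16.46 to 16.52 in mutants. Markers of dermal fibroblasts (9 of 9, median 0.28, and -0.02 without wild-type array 3), endothelium (6 of 6, -0.12, and -0.01), Schwann cells (2 of 5, -0.25, and -0.10) and skeletal muscle (7 of 7, 0.44, and 0.10) had summed levels that overlapped between the groups. Within bo20 and bo12 the medians were -0.09 and 0.12 for suprabasal, 0.02 and 0.45 for fibroblast, -0.09 and -0.45 for endothelial, -0.17 and -0.41 for Schwann and 0.11 and 1.10 for muscle markers.

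As a last description, the 9 reference probes were each centred on their own mean over the 6 arrays and averaged. The averaged profile stood at 0.13, 0.26 and 0.10 on the wild-type arrays and at -0.14, -0.25 and -0.10 on the mutant arrays. On wild-type array 3 the averaged members lay apart, Lama3, Itga6 and Col17a1 below their own means and the other 6 above. Of 11345 other genes, those with the smallest root mean square difference from it over the 6 arrays were Pdgfa, a platelet-derived growth factor chain (0.0584 log2 units), Dhrs1, a short-chain dehydrogenase (0.0590), Fbxl20 (0.0608), Zwilch, a kinetochore protein (0.0667), and Spns1, a lysosomal lipid transporter (0.0675). The members themselves lay between 0.210, for Itgb4, and 1.25, for Lama3, from their own average.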

How the data were processed

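The authors deposited bead intensities that are raw, per the file headers, and beside each a fraction headed as a p-value, read as 1 minus the detection p because bright probes stand at 1. They also deposited a log2 table, found to be log2 intensity minus the array's 75th percentile and minus each probe's median, within 2.3e-06 for every value. BeadStudio is named per the submitters' processing notes, and the sources used here give no further step and no array version. Probe symbols came from the platform annotation and were updated through Entrez identifiers or accessions (RefSeq, GRCm38.p6).

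Intensities were corrected with normexp (nec of limma 3.58.1, R 4.3.3, offset 16), log2-transformed and quantile-normalized. The 18358 probes detected (p under 0.05) on 3 or more arrays were tested with limma (lmFit, eBayes, two-sided, Benjamini-Hochberg over all tested probes, threshold 0.05). The fit was tested on simulated data whose spread was taken without wild-type array 3. That test does not show what the fit recovers with wild-type array 3 included. All kept probes of the members are named. From every related list the 4 genes of smallest p are named, and likeness was ranked by a fixed distance. Krt14, Krt15 and Trp63, outside that rule, and Myh8, named beside Krt14, were chosen after their values were seen. The members and lists were chosen with earlier results of these data known.

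The sample titles name no pairs of arrays, and the replicate numbers were treated as possible pairs. Deviations of same-numbered arrays from their group means correlated at 0.27, 0.462 and 0.538, each over 0.1, the rule used for pairs. Across numbers they correlated at 0.191 and 0.449 within bo20, and at -0.621 to -0.312 between prefixes. Thus bo20 arrays of different number deviated together too, and these values do not show that the numbers pair the samples. No 2 arrays shared over 0.517% of their raw intensities. Mean raw intensity was 260.0 to 463 per array, 17159 to 18422 probes were detected, and 3 arrays per group limit the precision. The alternatives were other background corrections, scaling, filters, variance models, weights, blocks, subsets and left-out arrays.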

Additional observations from a re-analysis of the deposited data

How the results depend on the processing

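No alternative brought a member probe past an adjusted p of 0.05 in limma. The count over all probes was 0 with all arrays, 1 without background correction, 6 in the authors' deposited table, 48 with a block for title prefix, 118 in the bo20 arrays alone and 129 with array weights, and 0 to 51 when 1 array was left out, the 51 without wild-type array 3. With a block for replicate number, 0 probes passed and the members' smallest adjusted p in limma was 0.383. That block changed no call. The members' median of -0.43 became 0.031 under median scaling, where that of all probes went from -0.04 to 0.42. The members' median was -0.071 without a detection filter, which adds the 24 dim probes. In bo12 it was -0.65, where that of all probes was -0.19. The members' median was -0.58 to -0.36 when 1 array was left out. Under median scaling, differences turned above 0 for Col17a1 (ILMN_2879995, 0.45, and ILMN_1216228, 0.15), Plec (ILMN_2710419, 0.18), Itgb4 (ILMN_3144575, 0.031), Itgb1 (ILMN_2609304, 0.24, and ILMN_2789077, 0.018) and Itga3 (ILMN_2616164, 0.20). In the authors' table Itga6 was -0.044 and Col17a1 (ILMN_2879995) 0.18. With array weights Itga6 was -0.028, Lama3 -0.72 and Itgb1 (ILMN_2609304) 0.047, and in bo20 Itga6 was -0.070 and Lama3 -0.81. With 1 array left out, Itga6 ranged from -0.15 to 0.50, Lama3 from -0.91 to 0.98, Col17a1 (ILMN_2879995) from -0.25 to 0.072 and Itgb1 (ILMN_2609304) from -0.19 to 0.13, and the negative ends of Itga6 and Lama3 and the positive end of Itgb1 were those without wild-type array 3. Of 268 member values under the alternatives, 243 kept their direction and side of the threshold or, in bo12, stayed within the replicate spread. Of the rest, 21 changed sign in tested comparisons and 4 moved in bo12. Other detection filters, variance models and blocks used the same normalized values, so they could not change a difference or its sign. Part of the 243 was therefore fixed in advance. Within bo12 Col17a1 (ILMN_2879995) also changed sign, to 0.20, inside the replicate spread. The cause of the sign changes in the authors' table was not tested. Probes near background, as those of Itga6 and the dimmer of Dst and Itgb1, bound what could be detected.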
